A study of Mus musculus with 12 samples.

Results

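The cytochrome P450 genes were followed through RNA of the mouse small-intestinal epithelium. They were taken as all protein-coding genes whose mouse symbol begins with Cyp, digits and a letter, and 99 of the 48526 gene rows met that rule. The data are 12 RNA sequencing libraries from 4 female mice aged 3 months. Each mouse gave an input library and 2 libraries of RNA pulled down with the antibodies J2 and K1, which bind double-stranded RNA. By the extraction protocol, epithelial cells came from the proximal part of the small intestine and were released with EDTA over 50 minutes, whereas the sample titles speak of the whole intestine. The DKO group is 2 mice in which deletion of KAT2A and KAT2B, a pair of related lysine acetyltransferases, was induced with tamoxifen at 100 mg/kg, given into the peritoneum on each of 4 days. The control group is 2 mice that received the ethanol and corn oil vehicle without tamoxifen. Epithelium was collected 2 days after injections ended in either group. Genotype and tamoxifen cannot be told apart, and the Cre driver, the alleles and the strain are not given in the sources used here.

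P450 enzymes are heme proteins that insert oxygen into drugs, fatty acids, steroids, retinoids and bile acid precursors, with electrons passed on by partner proteins such as P450 oxidoreductase. The enterocytes of the upper small intestine carry Cyp3a, Cyp2b and Cyp2c enzymes that oxidise ingested compounds before they reach the liver, and tamoxifen is itself a substrate of P450 enzymes. Many mouse P450 genes sit in arrays of close copies, and nuclear receptors, the aryl hydrocarbon receptor and HNF4 factors are known to control their transcription.

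Sequences of 4 Cyp2c genes are shown first because the largest loss in the family, that of Cyp2c68, falls on a gene whose copies are hard to tell apart. The 15 Cyp2c genes lie on chromosome 19 between positions 39007019 and 44029208 (GRCm38). The coding sequences of Cyp2c68 and Cyp2c67 were identical at 97.15% of bases, with 42 mismatches over 1476 bases, and the whole of the Cyp2c68 transcript is matched by sequence of at least 97% identity in Cyp2c40 or Cyp2c67. Of all windows of 100 bases in Cyp2c68, 19.82% also occur unchanged in another gene. The lines give coding bases 264 to 323 in the Cyp2c68 frame, from the GENCODE M21 transcripts, with capitals at the 8 positions of this window at which any of the 4 genes differs from the others. The full coding alignment holds 66 such positions.
Cyp2c68: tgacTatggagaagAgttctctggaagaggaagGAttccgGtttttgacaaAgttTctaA
Cyp2c67: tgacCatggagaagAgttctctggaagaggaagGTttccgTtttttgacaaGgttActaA
Cyp2c40: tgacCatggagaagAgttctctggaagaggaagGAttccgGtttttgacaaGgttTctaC
Cyp2c69: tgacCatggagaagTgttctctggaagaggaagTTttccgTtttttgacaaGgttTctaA
A read pair that spans such positions can be assigned to one copy, whereas a pair that falls between them cannot.

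Up to 250 bases before the RefSeq gene start are shown for 4 genes that fell, Cyp1a1, Cyp3a11, Cyp2c65 and Cyp2c68, because the proximal promoters of P450 genes hold short motifs of their known regulators. The sequences are from RefSeq (GRCm38.p6) and are written in the direction of transcription. They are chr9:57697363-57697612 on the plus strand for Cyp1a1, chr5:145879965-145880104 on the minus strand for Cyp3a11, chr19:39060756-39061005 on the plus strand for Cyp2c65 and chr19:39741102-39741351 on the minus strand for Cyp2c68. The Cyp1a1 stretch lies inside the GENCODE span of that gene (57687928 to 57703824), in an intron of its longer transcript. For Cyp3a11 the 110 bases next to the RefSeq start lie in the first GENCODE exon and are not shown, which leaves 140 bases. Capitals mark the aryl hydrocarbon receptor core GCGTG, the GATA motif AGATAA and the TATA box TATAAA in Cyp1a1. In Cyp3a11 they mark the nuclear receptor half-site AGTTCA and the letters TATAAA, and the HNF4-type motif CAAAGTCCA starts 109 bases before the RefSeq start, in the bases not shown. In Cyp2c65 they mark the HNF4-type motif and TATAAA, and in Cyp2c68 the HNF4-type motif and GCGTG. Matches of these motifs on either strand are marked. The CDX-type motif TTTATNG also matches Cyp1a1 on the other strand. It covers the TATA box and the base before it, and is not marked separately.
Cyp1a1: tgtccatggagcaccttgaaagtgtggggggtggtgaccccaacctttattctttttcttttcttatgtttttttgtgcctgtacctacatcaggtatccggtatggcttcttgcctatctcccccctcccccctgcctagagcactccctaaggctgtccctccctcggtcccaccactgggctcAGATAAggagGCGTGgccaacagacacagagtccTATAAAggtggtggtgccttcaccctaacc
Cyp3a11: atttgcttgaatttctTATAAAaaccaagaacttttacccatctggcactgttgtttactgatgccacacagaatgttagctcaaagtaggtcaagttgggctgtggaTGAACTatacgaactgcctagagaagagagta
Cyp2c65: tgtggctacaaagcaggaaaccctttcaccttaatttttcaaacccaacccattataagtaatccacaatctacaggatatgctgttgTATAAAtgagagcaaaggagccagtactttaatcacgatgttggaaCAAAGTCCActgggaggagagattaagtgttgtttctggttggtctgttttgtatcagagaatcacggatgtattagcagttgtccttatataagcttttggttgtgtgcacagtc
Cyp2c68: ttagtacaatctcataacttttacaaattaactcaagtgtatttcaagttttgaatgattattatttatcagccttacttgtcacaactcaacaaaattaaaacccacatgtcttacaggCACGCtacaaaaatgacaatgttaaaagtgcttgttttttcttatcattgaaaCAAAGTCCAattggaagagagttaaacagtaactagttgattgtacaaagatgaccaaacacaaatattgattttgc
Of the 99 members, 76 had an entry in the promoter table, in which the 250 bases before the RefSeq start were searched on both strands. The HNF4-type motif stood in 11 of these 76, against 0.4514% of the 27025 genes in the table. It stood in 4 of the 19 entries of members that fell, which were Cyp3a11, Cyp2c65, Cyp2c67 and Cyp2c68, and the last 2 are near copies of each other. The aryl hydrocarbon receptor core was found in 15 of 76 members and in 30.85% of all genes. AGATAA was in 14 members (11.43% of all genes), the CDX-type motif TTTATNG in 10 (11.3%), AGTTCA in 15 (13.37%) and TATAAA in 29 (14.33%). A match is a description of the sequence and not a bound site, and close copies share their promoters in part.

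The libraries held 10307281 to 11474107 gene counts in input, 13308021 to 16139531 in control pulldowns and 2220291 to 5826361 in DKO pulldowns, so DKO pulldown values of low genes are the least precise. Replicates correlated across genes at 0.9833 or more in input, at 0.9871 or more in control pulldowns, and at 0.8764 and 0.9206 in the J2 and K1 pulldowns of DKO. The deleted genes were lower in DKO input, with Kat2b at 359 and 343 counts in control and 118 and 114 in DKO, and Kat2a at 222 and 228 against 84 and 148. In bulk RNA, fewer cells of a type and less RNA per cell cannot be told apart.

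Many members had few or no counts in this tissue. As a comparison, 40 of the 99 members and 15088 of all 48526 gene rows had enough counts to be tested in input. No read was counted for 17 of the 99 genes in any of the 12 libraries, a further 19 had 1 to 9 counts over all libraries, and 26 had no count in the 4 input libraries. The genes without a count in any library included Cyp7a1, which starts bile acid synthesis in liver, Cyp19a1, the aromatase, and 5 of the 15 Cyp2c genes. Reads that align to several places are not counted, so a count of 0 does not show that a close copy was silent. Among such copies, 34.44% of the 100-base windows of Cyp2c40 and 90.82% of those of Cyp3a41a recur in other genes. A mean of at least 50 counts per input library was reached by 25 members, of which 7 were Cyp4 genes, 5 were Cyp2c genes and 3 were Cyp3a genes. None of the 6 vitamin A and D hydroxylases reached it, and Cyp24a1, the enzyme that degrades active vitamin D, had 2 counts in all libraries together.

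A few genes made up most of the P450 transcript level. On the scale of CPM (the count relative to library size, with TMM scaling) per kilobase of exon, Cyp4f14, an omega-hydroxylase of leukotrienes and fatty acids, was highest in control input at 403 ± 11.3 (SD, n = 2). Cyp3a13, the Cyp3a gene that lies apart from the main cluster, followed at 286.5 ± 6.98, then Cyp3a25 at 264 ± 51.3, Cyp2d26 at 243 ± 66.2 and Cyp2b10 at 188 ± 6.58. The intervals of Cyp3a13, Cyp3a25 and Cyp2d26 overlap within 1 SD, and so do those of Cyp2d26, Cyp2b10 and the next gene, Cyp3a11, at 165.5 ± 58.8. The order of neighbours below Cyp4f14, and which gene is the last of the first 5, are therefore not resolved. The 5 genes together held 61.11% of the summed level per length. In DKO input the order was Cyp4f14 at 433.5 ± 28.4, Cyp3a13 at 347 ± 62.3, Cyp4b1 at 129 ± 14.0, Cyp2d26 at 122 ± 17.7 and Cyp2c65 at 60.1 ± 0.996, and these 5 held 77.9%. Cyp4b1 and Cyp2d26 lie within 1 SD of each other there, and so do Cyp4f14 and Cyp3a13. The P450 share of all gene counts was 0.5685% and 0.6879% in the control inputs and 0.3566% and 0.3434% in the DKO inputs.

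**Figure D1:**
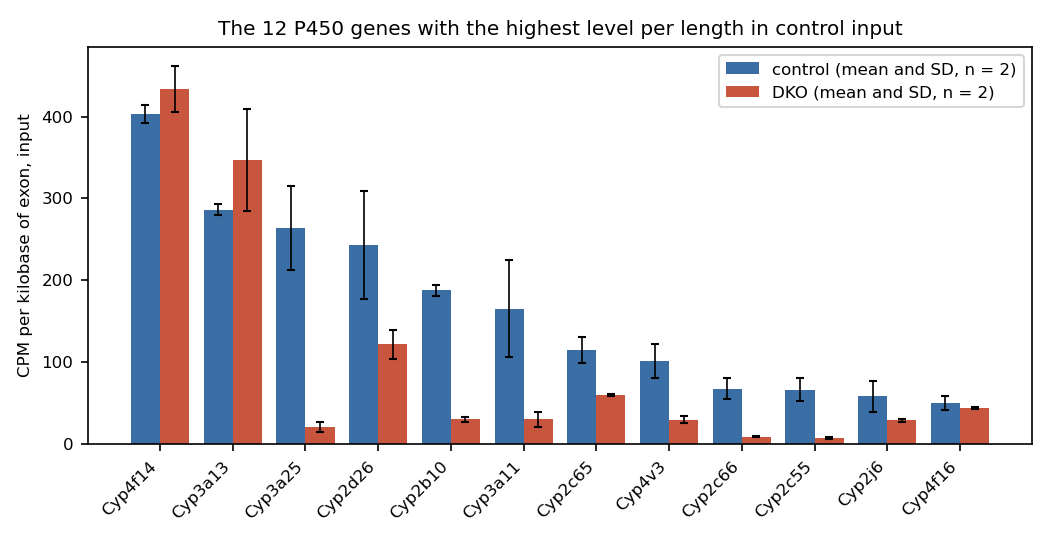
Level of the 12 P450 genes that were highest in control input, as CPM per kilobase of exon (vertical axis, linear from 0), with bars for the mean and lines for the SD of 2 animals per group (control blue, DKO red). Cyp4f14 and Cyp3a13 stand at similar heights in both groups, while Cyp3a25 goes from 264 to 20.6 and Cyp2b10 from 188 to 30.5.

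The first comparison asked which P450 transcripts changed in epithelium of DKO mice. Of the 40 members with enough counts to be tested in input, 29 passed the test (edgeR quasi-likelihood, Benjamini-Hochberg adjusted p under 0.05 over all genes), where 35.9% of all 15088 genes did. Of these, 6 were higher in DKO (18.8% of all genes) and 23 were lower (17.1% of all genes). The values of the 2 groups did not overlap for 37 of the 40, against 73.2% of all genes. The median log2 fold change of the tested members was -1.002, while that of all genes was -0.00. It stays at that value when the 3 genes with a group at 0 are set at their bounds. Summed over the family, the level was 5416 and 6608 CPM in control and 3983 and 3391 CPM in DKO.

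**Figure D2:**
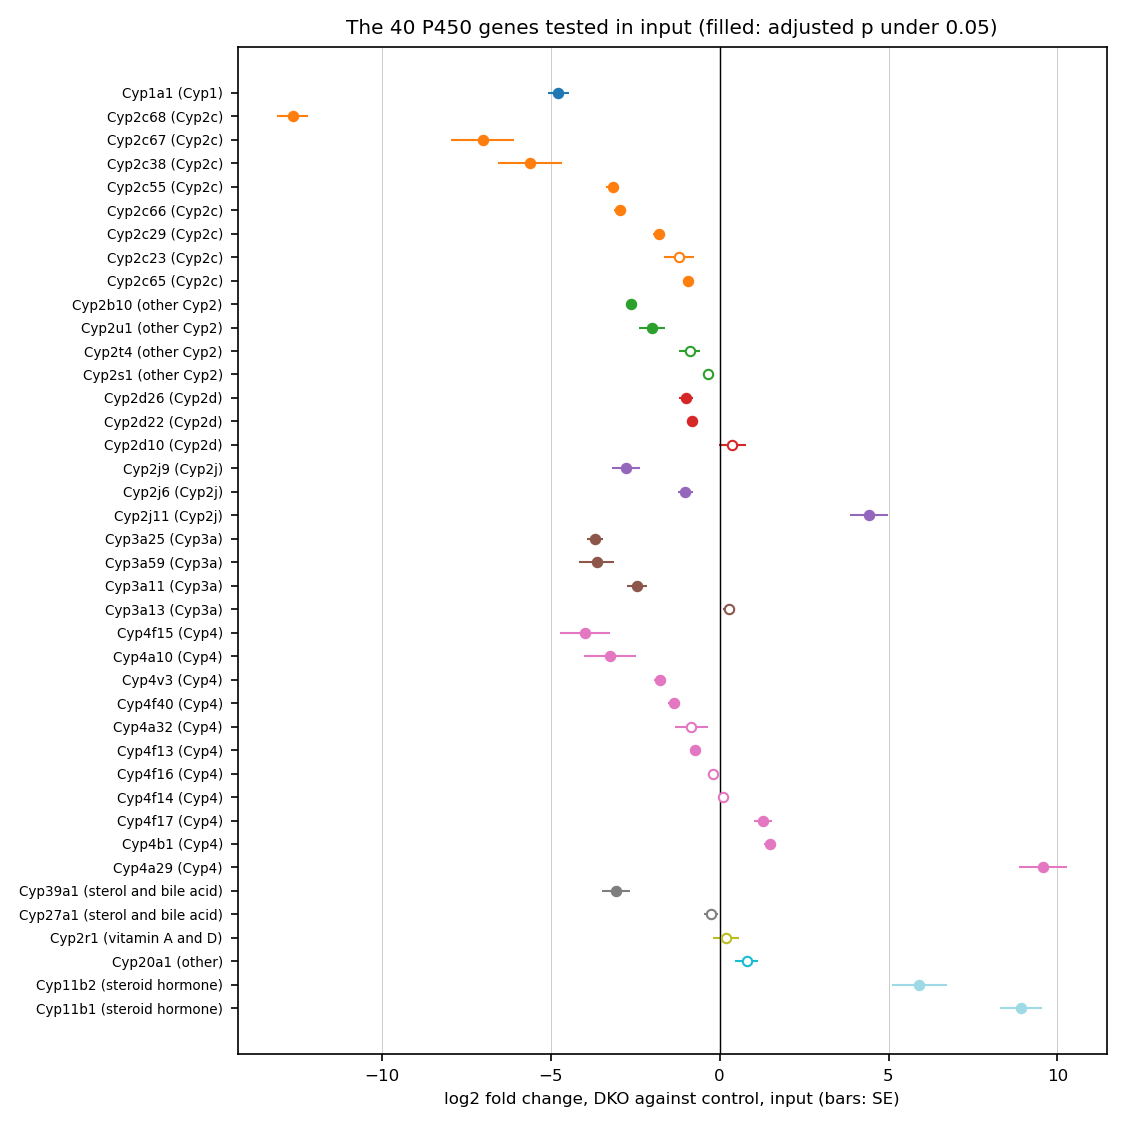
Log2 fold change of DKO against control in input for the 40 tested P450 genes (horizontal axis, bars are SE), coloured and labelled by class, with filled points for adjusted p under 0.05. Points left of 0 are lower in DKO, and all 8 tested Cyp2c genes lie there. The points of Cyp2c68, Cyp2c67 and Cyp4a29 come from a group with no counts and are not measured sizes.

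Cyp1a1, the enzyme whose transcription the aryl hydrocarbon receptor induces, fell furthest among the xenobiotic enzymes outside Cyp2c. It had 134 and 135 counts in the control inputs and 4 and 5 in the DKO inputs, a log2 fold change of -4.78 (SE 0.31, adjusted p = 0.000107). The control values are nearly the same and far from the DKO values. Its gene lies on chromosome 9 at 57687928 to 57703824. The other Cyp1 genes, Cyp1a2 and Cyp1b1, had too few counts to test, with at most 3 in any input library.

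All 8 tested Cyp2c genes, which encode drug hydroxylases and arachidonic acid epoxygenases, had lower values in DKO, and 7 of them passed the test. Cyp2c68 (chromosome 19, 39688834 to 39741054) had 673 and 974 counts in control input and 0 in both DKO inputs. That is at least 517-fold lower, taking 3 counts over the DKO group as the floor (adjusted p = 5.32e-05). No DKO input read was assigned to it, although its near copies leave the assignment of its reads uncertain. Cyp2c67 fell from 15 and 18 counts to 0 and 0, at least 10.36-fold, while Cyp2c40 and Cyp2c69 had no count in any library. No gain under these 3 copies accompanied the loss from Cyp2c68, although reads that align to several places are not counted under any gene.

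Cyp2c55 had 1214 and 1817 counts in control and 159 and 155 in DKO (log2 fold change -3.17, SE 0.19, adjusted p = 7.97e-05). Cyp2c66 had 1231 and 1792 against 162 and 206 (-2.95, SE 0.17, adjusted p = 7.97e-05). In both genes the DKO animals agreed closely and lay far below the controls. Cyp2c65, which shares 96.33% of its coding bases with Cyp2c66, fell less, from 2157 and 2912 counts to 1180 and 1301 (-0.94, SE 0.14, adjusted p = 0.00227). Whether the 2 genes changed unequally was not tested, and 7.818% of the 100-base windows of Cyp2c65 recur in another gene. Cyp2c29 went from 837 and 835 counts to 175 and 286 (-1.79, SE 0.18, adjusted p = 0.000469). Cyp2c38, chosen after its values were seen because of its low level, had 17 and 48 counts against 1 and 0. Cyp2c23 missed the threshold, at 30 and 82 counts in control and 21 and 24 in DKO (adjusted p = 0.0723).

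Among the Cyp3a genes, whose products oxidise a wide range of drugs and steroids, the 3 tested members of the main cluster fell, and Cyp3a13 outside it did not pass the test. Cyp3a25 (chromosome 5, 145977194 to 146009618) had 5132 and 7471 counts in control and 517 and 391 in DKO. The log2 fold change was -3.68 (SE 0.24, adjusted p = 0.000107). Cyp3a11, the main pregnane X receptor target of mouse, had 6827 and 12592 counts against 1880 and 1372 (-2.46, SE 0.30, adjusted p = 0.000935). The groups of both genes are well apart, and control 2 was above control 1 in each. Cyp3a13 (chromosome 5, 137892932 to 137921619) had 9319 and 9940 counts in control and 11628 and 10164 in DKO, a change of 0.27 (SE 0.17, adjusted p = 0.236). Cyp3a59 fell from 29 and 54 counts to 2 and 4 and shares 97.49% of its coding bases with Cyp3a25, so its count is uncertain. It is named after its values were seen.

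The remaining Cyp2 enzymes were lower where they passed the test, with Cyp2j11 as the exception. Cyp2b10, the classic target of the constitutive androstane receptor, had 4183 and 4853 counts in control and 694 and 680 in DKO (log2 fold change -2.62, SE 0.14, adjusted p = 6.18e-05). Cyp2u1, a fatty acid hydroxylase, had 363 and 583 counts against 56 and 167 (-2.01, SE 0.38, adjusted p = 0.00629). Replicates of Cyp2b10 agreed closely, while those of Cyp2u1 were spread in both groups without overlap. Cyp2s1 had 1053 and 1282 counts against 852 and 865 and did not pass (adjusted p = 0.0635). The Cyp2d genes Cyp2d26 and Cyp2d22 fell by smaller amounts. Cyp2d26 went from 3809 and 6209 counts to 2430 and 2232 (-0.99, SE 0.21, adjusted p = 0.00873), and Cyp2d22 from 687 and 779 to 375 and 407 (-0.82, SE 0.11, adjusted p = 0.00165). The remaining tested Cyp2d gene, Cyp2d10, had about 10 counts per library and did not pass.

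The Cyp2j genes, which encode fatty acid epoxygenases clustered on chromosome 4, moved in opposite directions. Cyp2j6, the most abundant of them, had 1752 and 3083 counts in control and 1104 and 1127 in DKO (log2 fold change -1.01, SE 0.21, adjusted p = 0.00966). Cyp2j11 (chromosome 4, 96294508 to 96348662) had 13 and 1 counts in control and 125 and 168 in DKO (4.43, SE 0.57, adjusted p = 0.00117). Each DKO value of Cyp2j11 exceeds both control values by a wide margin. Cyp2j9, named after its values were seen, fell from 49 and 99 counts to 9 and 11. The 5 other Cyp2j genes were not tested.

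The Cyp4 enzymes, which hydroxylate fatty acids and eicosanoids at the far end of the chain, were the most mixed class, with 3 genes higher, 5 lower and 3 without a call among 11 tested. Cyp4b1 (chromosome 4, 115624725 to 115647723) had 999 and 1386 counts in control and 3161 and 3060 in DKO (log2 fold change 1.48, SE 0.16, adjusted p = 0.000576). Cyp4a29, from the same array on chromosome 4, had no count in the control inputs and 101 and 83 in the DKO inputs. That is at least 65.13-fold higher (adjusted p = 0.000306), and it is named after its values were seen. Cyp4f17, likewise named afterwards, rose from 24 and 30 counts to 66 and 58 (1.29, SE 0.27, adjusted p = 0.00967).

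Of the Cyp4 genes that fell, Cyp4v3 was the most abundant, with 3568 and 5262 counts in control and 1256 and 1152 in DKO (log2 fold change -1.77, SE 0.18, adjusted p = 0.000514). Cyp4f40 went from 887 and 1181 counts to 296 and 467 (-1.36, SE 0.18, adjusted p = 0.00147), and Cyp4f13 from 764 and 1003 to 451 and 555 (-0.72, SE 0.13, adjusted p = 0.00548). Cyp4a10, a target of the fatty acid receptor PPAR alpha, had 59 and 338 counts in control and 24 and 14 in DKO. Its log2 fold change was -3.24 (SE 0.78, adjusted p = 0.0154), and the control animals differed widely from each other. This call was lost when either DKO animal was left out and in the fit of all 12 libraries, at log2 fold changes within -3.99 to -1.61 over all alternatives, and 72.55% of its transcript is nearly identical to Cyp4a32. The abundant Cyp4f14 had 10755 and 11411 counts in control and 11050 and 11366 in DKO, a difference that did not pass the test (0.11, SE 0.14, adjusted p = 0.596). Cyp4f16 had 1480 and 2065 counts against 1375 and 1502 (-0.21, SE 0.14, adjusted p = 0.304). Cyp4f15, a low gene named after its values were seen, fell from 18 and 54 counts to 2 and 2.

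**Figure D3:**
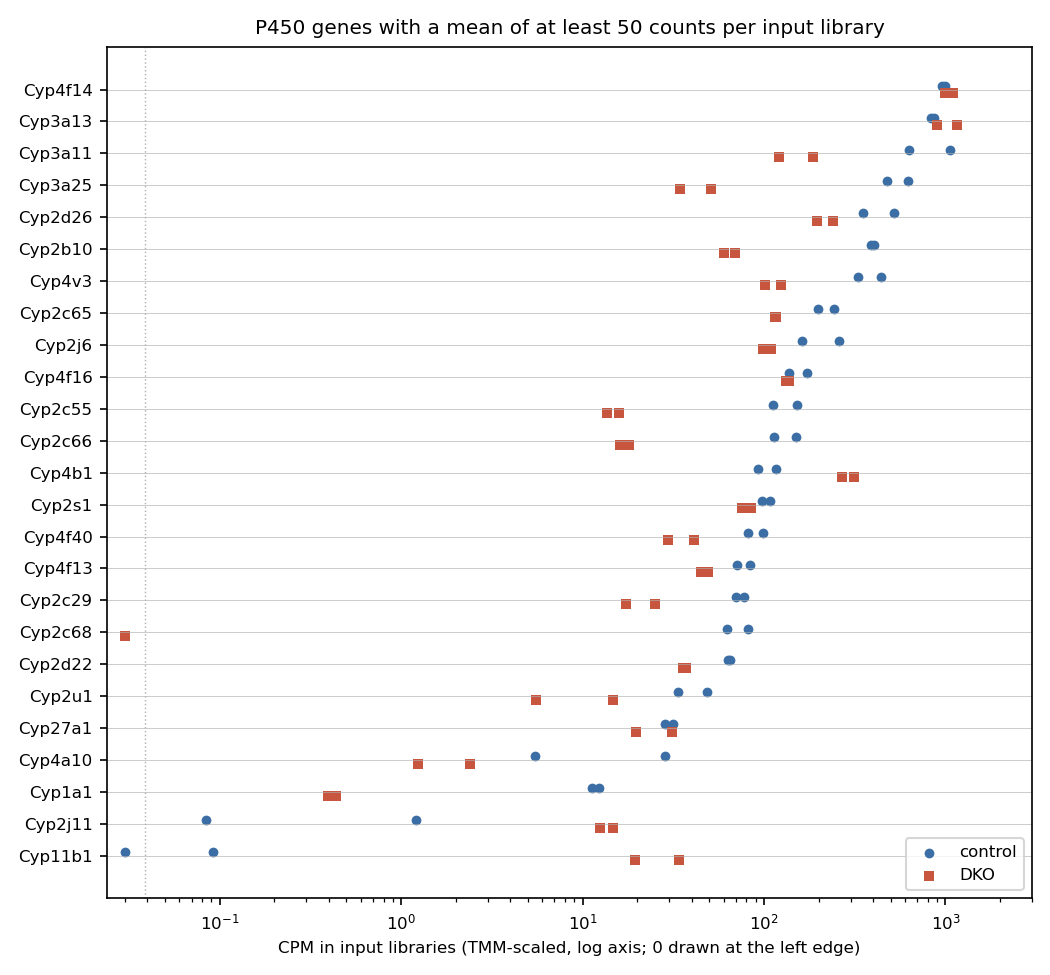
CPM in each of the 4 input libraries (horizontal log axis) for the 25 P450 genes with a mean of at least 50 counts per input library, with blue circles for control and red squares for DKO animals. Values of 0 are drawn at the left edge. Cyp2c68 in DKO sits at that edge, while Cyp11b1 and Cyp2j11 are the genes with DKO points far to the right of control.

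The 2 tested genes of steroid hormone synthesis were both higher in DKO. Cyp11b1, the mitochondrial 11-beta-hydroxylase that completes glucocorticoid synthesis, had 1 and 0 counts in control input and 341 and 221 in DKO (chromosome 15, 74834125 to 74841643). The ratio of the summed counts was 596.8-fold, with an exact 95% interval of 106.7 to 2.361e+04 that covers counting error only (adjusted p = 0.000139). Its neighbour Cyp11b2, the aldosterone synthase, had 2 and 0 counts against 84 and 42, a ratio of 66.9-fold (interval 18.14 to 558.5), and is named after its values were seen. Both are at or near 0 in control and clearly present in DKO. Of the 100-base windows of Cyp11b1, 11.64% recur in other genes, and Gml2 overlaps 9.005% of its exons. Cyp11a1, which makes pregnenolone from cholesterol, had 0 and 1 counts in control input and 4 and 2 in DKO. Cyp17a1 had between 5 and 7 counts in each input library, and Cyp21a1 and Cyp19a1 had none.

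In the sterol and bile acid class, Cyp27a1, a mitochondrial sterol hydroxylase, had 309 and 377 counts in control and 312 and 223 in DKO and did not pass (adjusted p = 0.389). Cyp39a1, an oxysterol hydroxylase named after its values were seen, fell from 45 and 37 counts to 5 and 4 (log2 fold change -3.07, SE 0.41, adjusted p = 0.00139). Cyp2r1, a vitamin D 25-hydroxylase, was the one testable vitamin gene, with 13 and 17 counts against 19 and 13 (adjusted p = 0.733). Cyp20a1, whose function is not settled, had 30 and 41 counts against 39 and 79 (adjusted p = 0.103). Cyp2t4 and Cyp4a32 were the other tested members that did not pass.

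The members also varied between animals of 1 group. Among the 25 genes with at least 50 counts, control 2 was above control 1 in 19 and DKO 2 was above DKO 1 in 7. The median log2 difference was 0.29 in control and -0.14 in DKO. Control 2 was more than 2-fold above control 1 for Cyp4a10, the reverse held for Cyp2j11, and the DKO animals were more than 2-fold apart for Cyp2u1.

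The proteins that work with P450 enzymes were examined through lists made from general knowledge. Of 8 electron donors and partners, 5 fell and none rose (median log2 fold change -0.59). Cyb5r3, which reduces cytochrome b5, had 10339 and 12761 counts in control and 5468 and 5873 in DKO (-0.93, adjusted p = 0.00241), and Cyb5b and Cyb5a fell as well (-0.86 and -1.02). Por, the main electron donor of microsomal P450 enzymes, had 2471 and 3998 counts against 3712 and 2649, with overlapping groups (adjusted p = 0.795). Of 20 tested regulators, 7 fell and 3 rose (median -0.04). Vdr, the vitamin D receptor, had 7545 and 8144 counts against 1601 and 2334 (-1.92, adjusted p = 0.000258), and Rxra, the shared partner of nuclear receptors, and Hnf4g fell too (-1.13 and -0.71). The regulators that follow were not among the 3 called ones with the highest level. The transcripts of Ahr and Arnt, the receptor pair that acts on Cyp1a1, rose by 0.63 and 0.37, and Nr1h4 rose by 0.73. Ppara fell by 0.87 (edgeR, adjusted p = 0.0129). Nr1i3, the constitutive androstane receptor, did not pass (0.10, adjusted p = 0.752). Nr1i2, the pregnane X receptor, had 1250 and 1396 counts against 1655 and 1408 and did not pass (adjusted p = 0.159), nor did Hnf4a (adjusted p = 0.719).

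Enzymes that act beside or after the P450 step were lower in most cases. Of 27 tested conjugating enzymes, 19 fell and 1 rose (median -1.20). The glutathione transferase gene Gstm3 had 10341 and 11039 counts in control and 642 and 618 in DKO (-3.99, adjusted p = 3.73e-05), Gstm1 fell by 3.78 and Ugt2b34, a glucuronyltransferase, by 1.20. Of 28 other oxidising, reducing and hydrolysing enzymes, 19 fell and 3 rose (median -1.10). Ces2e, a carboxylesterase, fell by 0.63, Aoc1, the diamine oxidase, by 2.51 and Maoa, a monoamine oxidase, by 2.35. Of 9 efflux transporters, 4 fell, among them Abcc2 (-1.21), and 2 rose (median -0.31). Cyp51 and Tbxas1, P450-type enzymes that the symbol rule leaves out, both rose (1.54 and 0.86). All these lists stand beside 18.8% of genes higher and 17.1% lower over the whole input comparison.

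Cell type markers moved in different directions between lists. The counts of this and the next paragraph stand beside 18.8% of genes higher and 17.1% lower over the whole input comparison. General epithelial markers were higher in 2 and lower in 0 of 10. Of 15 enterocyte markers 5 fell and none rose (median -0.09), led by Lct, the lactase gene, at -5.31. Their summed level overlapped between groups, at 5.021e+04 and 5.39e+04 CPM in control and 6.202e+04 and 4.434e+04 CPM in DKO. Of 10 markers of the proximal intestine 8 fell (median -0.69), and their summed level was 4456 and 5719 CPM in control and 1635 and 1416 CPM in DKO. Most of the control sum was Lct, which is on both lists, with means of 3064 CPM in control and 77.1 CPM in DKO. Of 9 tested distal markers 4 rose and 2 fell. The distal list summed to 688.9 and 1078 CPM in control and 672.9 and 590.8 CPM in DKO. Cubn, its gene with the highest control level, fell from a mean of 393.3 CPM to 7.92 CPM. Stem cell markers fell in 9 of 15 (summed 1008 and 997 CPM against 371 and 495 CPM). Olfm4 alone had a mean of 385 CPM in control and 46.7 CPM in DKO. Goblet markers rose in 4 and fell in 0 of 10, Paneth markers in 2 and 2 of 8, enteroendocrine markers in 5 and 1 of 10, and tuft markers in 3 and 0 of 7.

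Markers of other tissues were low. Leukocyte markers rose in 2 and fell in 4 of 12 tested, with sums of 149.8 and 145 CPM in control and 119.9 and 100.1 CPM in DKO. Stromal and endothelial markers summed to 8.04 to 14.9 CPM and pancreatic markers to 4.02 to 7.55 CPM. Of 10 hepatocyte markers only Tat, which is not limited to liver, could be tested. It had 12 and 1 counts in control and 335 and 358 in DKO. Alb had 0 to 8 counts per input library, and Serpina1a, Fgb and Fgg were at 0. The part of any of these cell types in the P450 values was not tested.

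The next comparisons looked at the same genes in RNA pulled down by each antibody. With J2, 10 of 33 tested members passed (12.2% of all genes), 3 higher (6.02% of all genes) and 7 lower (6.16%), with a median of -1.30 against 0.03 for all genes. With K1, 18 of 32 passed (27.1% of all genes), 3 higher (13.2% of all genes) and 15 lower (13.9%), with a median of -1.38, or -1.34 with 4 genes set at their bounds, against -0.02. Of the 32 members tested in all 3 kinds of library, 8 passed in each. The same count over all genes was not made, so no baseline stands beside it. Cyp1a1, Cyp2c29, Cyp2c55, Cyp2c66, Cyp2c68 and Cyp39a1 were lower in all 3, and Cyp11b1 and Cyp4f17 were higher. The 3 libraries of an animal come from the same cells, so these comparisons are not independent.

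Single genes show how thin the DKO pulldowns are. Cyp1a1 had 270 and 244 counts in the control J2 libraries and 2 and 1 in DKO, and 209 and 242 against 0 and 1 with K1. The J2 ratio was 44.05-fold lower (exact 95% interval 14.99 to 214.3, adjusted p = 0.0287) and the K1 ratio 87.47-fold (15.62 to 3463, adjusted p = 0.00386). Both intervals are wide because the DKO side rests on 1 to 3 counts. Cyp2c55 had 955 and 1220 counts against 8 and 4 with J2 (-5.57, SE 0.47, adjusted p = 0.0287) and 739 and 917 against 19 and 4 with K1 (-3.88, SE 0.43, adjusted p = 0.00231). Cyp3a11 had 4980 and 8178 against 250 and 30 with J2 (-3.77, SE 0.97, adjusted p = 0.0611) and 4496 and 8400 against 222 and 18 with K1 (-3.70, SE 0.76, adjusted p = 0.0138). The fold changes of Cyp3a11 with the 2 antibodies are close, and the J2 value has the larger error and no call. Cyp39a1 had 131 and 112 counts against 1 and 1 with J2, a ratio of 31.24-fold (8.555 to 259.4, adjusted p = 0.0287).

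Calls with J2 depended on single libraries. Between 3 and 28 members passed when each animal was left out in turn, 5 and 3 without control 1 and control 2, and 28 and 25 without DKO 1 and DKO 2. With K1 the corresponding range was 12 to 22, with 13 and 12 calls without control 1 and control 2. The lowest of these K1 counts is 1.5 times below that of the full set. In each such fit the lone animal is assumed to vary like the pair in the other group. Calls over all genes moved as well: with J2 they were 177 of 13305 and 225 of 13383 without control 1 and control 2, and 8635 of 14647 and 7726 of 14312 without DKO 1 and DKO 2. With K1 they were 1149 of 12723, 1298 of 12810, 5343 of 14055 and 5819 of 14007 in the same order.

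**Figure D4:**
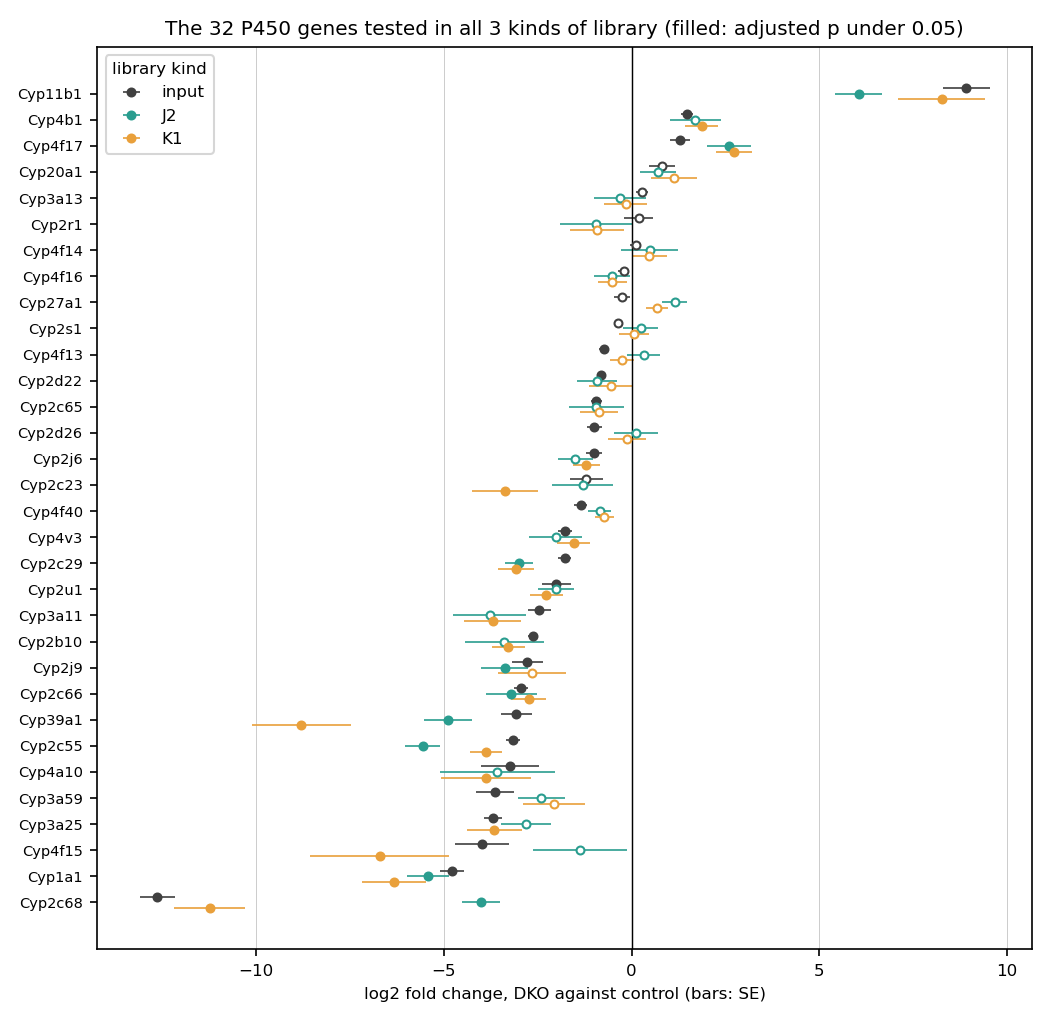
Log2 fold change of DKO against control (horizontal axis, bars are SE) in input (grey), J2 (green) and K1 (orange) for the 32 P450 genes tested in all 3, with filled points for adjusted p under 0.05. Error bars of the pulldowns are wider than those of input for most genes. In all 3 kinds, 21 genes lie below 0 and 5 above 0, and the same counts over all genes were not made. Points of genes with a group at 0 counts, such as Cyp2c68 in input and K1, are not measured sizes.

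Recovery of P450 transcripts by the antibodies was read as pulldown against input of the same genotype. The main fits had no block for the animal. In control epithelium, J2 libraries held 9 of 42 tested members at a different level than input (29.8% of all genes), 2 higher (15.2%) and 7 lower (14.6%), with a median log2 fold change of -0.52 against -0.07 for all genes. With K1, 10 of 43 differed (39.8% of all genes), 1 higher (19.7%) and 9 lower (20.1%), with a median of -0.62 against 0.00. With the animal as a block, the K1 count was 15, and 7288 of 15908 genes were called (6324 in the main fit). In DKO epithelium 8 of 42 differed with J2 (25.7% of all genes), 2 higher (12.2%) and 6 lower (13.4%). With K1, 9 of 43 differed (35.6% of all genes), none higher (14.6%) and 9 lower (21.0%). The medians were -0.41 with J2 (all genes 0.10) and -0.76 with K1 (all genes -0.14). With the animal as a block, 16 differed in the K1 comparison of DKO, and 6337 of 15908 genes did (5659 in the main fit). No control call remained with either antibody when 1 of the control animals was left out (0 of 46 and 0 of 42 with J2, 0 of 47 and 0 of 44 with K1), with 4, 1, 4 and 7 members at an unadjusted p under 0.05. Over all genes the same fits called 0 of 17009 and 0 of 16858 with J2, and 338 of 16861 and 281 of 16566 with K1, so calls fell across the transcriptome and not in the members alone. With all animals, DESeq2 called 9 members in each of these control comparisons, and 5399 of 15923 genes with J2 and 5856 of 15908 with K1.

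Cyp3a25 was the abundant member least recovered from control epithelium. Its log2 CPM in J2 minus that in input of the same animal was -2.12 in both controls (fitted fold change -2.12, SE 0.58, adjusted p = 0.0268), and with K1 it was -1.75 and -1.55 (-1.64, SE 0.57, adjusted p = 0.0411). The 2 control animals agreed closely for both antibodies. Cyp1a1 was higher in J2 than in input in control, by 0.79 and 1.01 (fitted 0.91, SE 0.26, adjusted p = 0.0322). Of the members with at least 50 counts per library, Cyp2c68, Cyp2d22, Cyp4f13, Cyp2c29 and Cyp27a1 were also lower in control J2, by fitted values of -1.52 to -0.94. With K1, Cyp4v3, Cyp2c55, Cyp2c68, Cyp4f13 and Cyp2c29 were lower, by -1.45 to -0.82.

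In DKO the abundant members were recovered less evenly. Of the 25 genes with at least 50 input counts, the value of DKO 2 was below that of DKO 1 in 20 with J2 and in 21 with K1, with median gaps of 1.24 and 1.20 on the log2 scale. The control gaps were 0.15 and 0.28. Over all tested members, the median value in DKO 1 and DKO 2 was -0.07 and -1.08 with J2, and -0.36 and -1.11 with K1. Over all tested genes the medians were -0.01 and -0.07 with J2, and -0.14 and -0.21 with K1. How many of all genes had DKO 2 below DKO 1 was not counted. The DKO 2 pulldowns had the fewest counts and the largest share of reads with several alignments, 29.5% with J2 and 46.71% with K1, against 5.54% to 6.56% in control pulldowns. The part of depth and multiple alignment in these gaps was not tested. Among the called genes, Cyp2c55 was lower in J2 than in input by -2.58 and -2.997 in the DKO animals (fitted -2.85, SE 0.41, adjusted p = 0.00449) and Cyp2c29 by -1.77 and -2.41 (fitted -2.16, SE 0.29, adjusted p = 0.00373). Cyp11b1 was lower by -2.16 and -1.56 with J2 (fitted -1.94, SE 0.42, adjusted p = 0.0145) and by -2.42 and -3.12 with K1 (fitted -2.55, SE 0.48, adjusted p = 0.004). In both DKO animals and with both antibodies its pulldown level was below its input level. With K1, Cyp3a11, Cyp4v3 and Cyp2j6 were also lower, by -2.11 to -1.12.

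**Figure D5:**
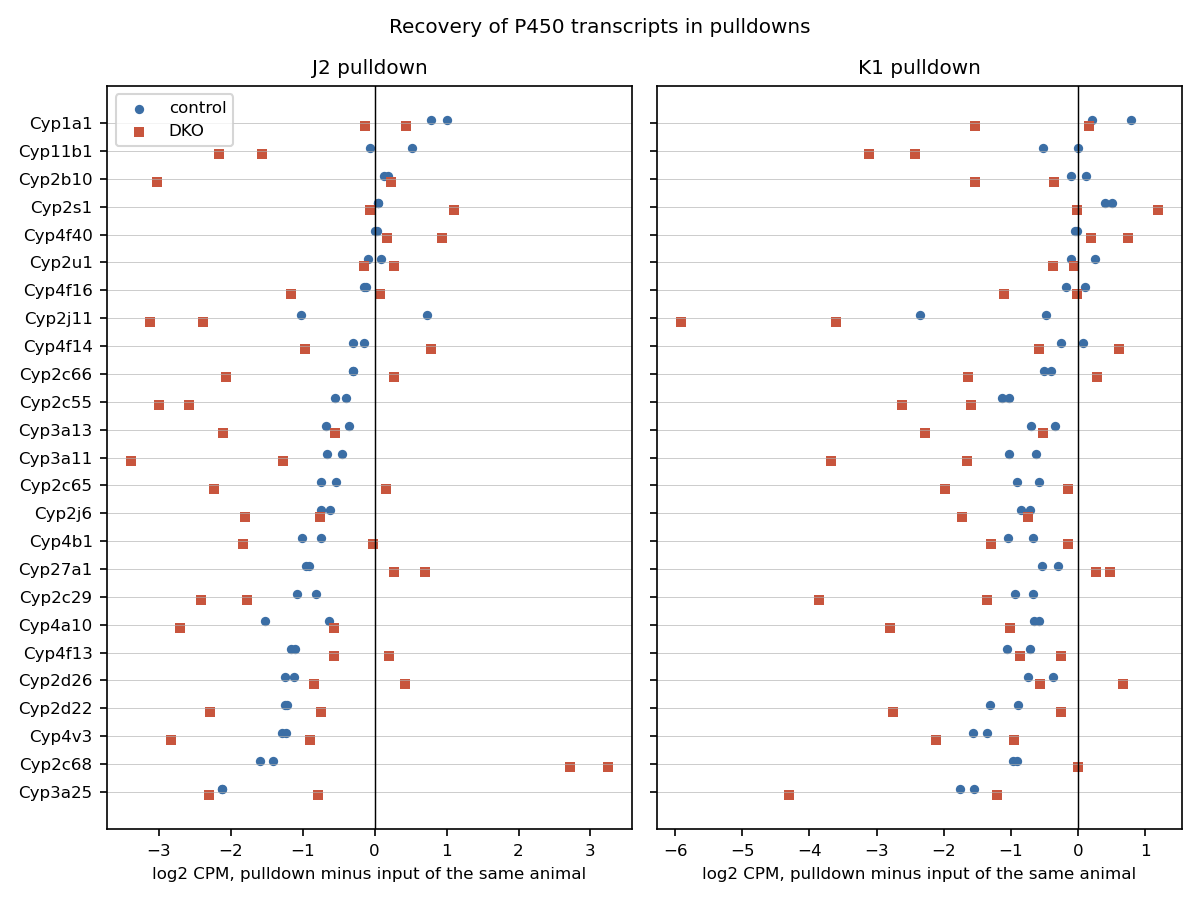
Log2 CPM in the pulldown minus log2 CPM in the input of the same animal (horizontal axes) for the 25 P450 genes with at least 50 counts per input library, with J2 on the left, K1 on the right, blue circles for control and red squares for DKO animals. Control pairs lie close together, with a median gap of 0.15 for J2, while DKO pairs lie apart, with a median gap of 1.24. Points near 0 for genes with no counts, such as Cyp2c68 in DKO with K1, carry no information.

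The last comparison asked whether recovery itself differed between genotypes, as the DKO value of pulldown against input minus the control value. With J2, 1 of 42 members passed (2.71% of all genes), as a higher value in DKO (0.772% of all genes were called higher and 1.94% lower). With K1, 0 of 43 passed (5.47% of all genes, 1.37% higher and 4.10% lower), where edgeR gave 4 at an unadjusted p under 0.05 and DESeq2 also called 0. The J2 gene was Cyp2c68. It had 673 and 974 counts in control input and 290 and 286 in control J2, but 0 and 0 in DKO input and 4 and 5 in DKO J2. The J2 level in DKO was at least 10.92-fold above its input, with 3 counts over the 2 inputs as the floor, whereas control J2 was below input. This bound takes the 9 J2 reads as exact and does not cover their counting error or the spread between animals. Log2 CPM in J2 minus that in input of the same animal was 2.71 and 3.25 in DKO and -1.42 and -1.59 in control. The fitted difference was 8.32 (adjusted p = 0.0291), or 6.75 after thinning to the smallest library. With DKO input at 0 counts, the fitted difference is not a measured size. It lost the call with the animal as a block (adjusted p = 0.0712) and without control 1 or control 2 (adjusted p = 0.738 and 0.676). The fitted difference was 8.35, 8.23 and 7.97 in these 3 fits, in which no gene at all was called (0 of 15923, 0 of 17009 and 0 of 16858, with 4074, 1062 and 1220 genes at an unadjusted p under 0.05). The DKO side of this value rests on 9 reads of a gene with near copies, and the K1 libraries of DKO held none.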

How the data were processed

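RNA was measured in 12 libraries (input, J2, K1) of 4 mice. The deposited values are whole-number counts per gene, made by the authors without strand, per the labels; reads of overlapping genes cannot be separated. The submitters' processing notes name STAR 2.7.10b, UMI-tools 1.1.4, HTSeq 2.0.2 and the builds mm10 and GRCm38.p4; the annotation release is not given in the sources used here. Rows that name no gene held 18.69% to 61.25% of the listed reads and were left out. Symbols and coordinates came from GENCODE M21 (GRCm38), matched for 48144 of 48526 rows without the version; 72 of 99 members also matched in version.

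The test was the quasi-likelihood test of edgeR 4.0.16 (R 4.3.3) with TMM scaling and filterByExpr (count minimum 10), and calls had a Benjamini-Hochberg adjusted p under 0.05 over all tested genes. It was run in 4 libraries for DKO against control and in 8 for pulldown against input and for its difference between genotypes. Every adjusted p-value printed is from edgeR. SE is the fold change divided by the root of the F statistic. An exact permutation test of 2 against 2 cannot go below p = 0.3333. A group with no count was set to 3 counts over its 2 libraries, and ratios on 1 to 3 counts have exact binomial 95% intervals. Near copies were found with blastn 2.17.0+ at 97% identity or more over at least 100 bases. Scripts were tested on simulated data.

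Replicates are separate mice. Pulldown and input of an animal deviated together (r 0.2242 to 0.3144 across genes), and the labels name the animal, so those libraries are paired. The main tests had no block for the animal and did not use this pairing. Alternatives were other scalings, no filter, DESeq2 1.42.0, a block, 1 fit of all libraries, thinning and leaving out each animal. Named genes were those called with a mean of at least 50 counts (input, up to 25) or the 10 largest called changes (other comparisons), uncalled abundant genes, and up to 3 called genes per list by level. The members, lists and motifs were chosen with earlier results of these data known.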

Additional observations from a re-analysis of the deposited data

Results flagged for a closer look

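The difference of J2 recovery between genotypes passed its own test for Cyp2c68, at 8.32 on the log2 scale (edgeR, adjusted p = 0.0291). The value rests on 4 and 5 counts in the DKO J2 libraries against 0 and 0 in DKO input, so it is not a measured size. Near copies of the gene also make its counts uncertain.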

How the results depend on the processing

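No called named gene changed direction under the alternatives run; of the uncalled ones in input, Cyp4f14 went from 0.11 to -0.03 with library totals and Cyp27a1 from -0.25 to 0.04 without DKO 2. In input the number of P450 genes called stayed at 29 to 31 when any animal was left out, and was 18 in the fit of all 12 libraries, which tested 46 members. Over all genes, that 12-library fit called 1675 of 16582 in input, where the main fit called 5421 of 15088. With no filter, 22 members were called in the J2 comparison of genotypes. DKO recovery by J2 and K1 had 15 and 17 calls, control recovery by K1 had 17, and the J2 and K1 differences had 3 and 2. In that order, the calls over all genes were 4273 of 25232, 5464 of 29004, 6366 of 28702, 7450 of 28702, 2453 of 29004 and 1763 of 28702. DESeq2 called 17 members in the J2 comparison and 3 in the J2 difference (2884 of 13181 and 2018 of 15923 over all genes). The fit of all 12 libraries called 22 in the J2 comparison, 5 in control recovery by each antibody and 2 in the J2 difference. Of all 16582 genes it called 5984 in the J2 comparison, 4919 and 4587 in control recovery by J2 and K1, and 898 in the J2 difference. Scaling by library totals called 14 and 18 members in DKO recovery by J2 and K1 and 2 in the J2 difference. Over all genes it called 3825 of 15923, 6234 of 15908 and 669 of 15923. Size factors and TMM without mitochondrial genes also called 2 members each in the J2 difference, and 455 and 461 of 15923 genes. Library totals also moved the share of higher calls over all genes from 52.41% to 42.14% in input, from 49.44% to 32.7% in J2, from 48.61% to 27.44% in K1, from 51.11% to 34.65% and 47.64% to 21.1% in J2 recovery of control and DKO, from 49.56% to 35.93% and 41.08% to 22.31% in K1 recovery, and from 28.47% to 10.46% and 25.06% to 13.24% in the differences. Size factors moved it to 39.2% in the K1 difference, and TMM without mitochondrial genes to 38.56% in control K1 recovery. With library totals the median of all genes was -0.13 in input, -0.39 in K1 and -0.44 in control J2 recovery. With the animal as a block, 16 members were called in DKO recovery by K1, 15 in control recovery by K1, and 0 in the J2 difference. In the J2 difference 6 members were at an unadjusted p under 0.05 and DESeq2 called 3. Over all genes the block called 6337 and 7288 of 15908 in these K1 comparisons, and 0 of 15923 in the J2 difference. Replicate numbers are shared between DKO and control without a stated meaning: same-numbered samples correlated at 0.03 in input, -0.11 in J2 and -0.12 in K1, and a replicate block gave 30, 15 and 20 calls. The crossed pairing, added after seeing the data, gave 30, 17 and 20. Over all genes the replicate block called 5732 of 15088, 2262 of 13181 and 3377 of 12888, and the crossed pairing 6039, 2635 and 3896. Leaving out 1 animal gave 3 to 28 calls in J2, 12 to 22 in K1, 0 to 19 and 2 to 23 in J2 recovery of control and DKO, 0 to 16 and 6 to 17 in K1 recovery, 0 to 16 in the J2 difference and 0 to 6 in the K1 difference. The cause of these shifts was not tested. Thinned to the smallest library, 8 of 27 members were called with J2 (1091 of 10311 genes) and 15 of 25 with K1 (2470 of 9979 genes).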
